A study of Mus musculus with 114 samples.

Results

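Chow-fed mice were compared between the first and the last time of the study, which gives the full span over which perigonadal adipocytes of mice without a high fat diet were followed. The libraries compared were those of 6 mice fed chow for 8 weeks and 8 mice fed chow for 34 weeks, which are 14 of the 38 mice with adipocyte libraries, and the genes tested were the 10156 of 29132 whose mean log2(CPM + 1) over these 14 mice was above 2. CPM values scale the reads on the listed genes to the same total in every mouse, and the log2 scale with 1 added is used throughout for differences. All mice were male C57BL/6J animals, started the diet at 6 weeks of age and were fasted for 6 hours before they were killed, so that they were 14 and 40 weeks old at the compared times. The chow was 1 of 2 control diets from the same supplier, and the labels do not tell which mouse received which. RNA came from the fraction that floats after collagenase digestion of the fat pad, and each value is that of 1 mouse, after the authors had merged its 3 technical replicates.

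White adipocytes store triglyceride in a large droplet, release fatty acids by lipolysis when food is withdrawn, and make new fatty acids from glucose after meals. They also secrete adipokines such as leptin and adiponectin, and they sit in a matrix of collagens and glycoproteins that is remodelled as the fat pad grows. Macrophages, progenitors, vessels and lymphocytes share the tissue, and macrophages that take up lipid from dying fat cells carry their own lysosomal gene programme. Some of these cells can float with the adipocytes or stick to them.

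The libraries held 9275711 to 12611013 reads on genes per mouse, so that 1 read equals 0.0793 to 0.108 CPM. Adipocyte markers were high in every mouse, with a mean log2(CPM + 1) over the 20 markers of 10.6 to 11.02 at 8 weeks and 10.1 to 11.3 at 34 weeks. Markers of other cells moved with age. The mean over 19 macrophage markers was 3.94 to 5.99 at 8 weeks and 5.41 to 8.76 at 34 weeks, and their summed level was 479 to 2138 CPM at 8 weeks and 1452 to 15606 CPM at 34 weeks, with no marker at 0 in either group. T and NK cell markers had means of at most 0.374, and none of the 12 reached the filter, nor did any of the epididymis and testis list. Of 9 endothelial markers tested and the 1 erythroid marker none was called, of 9 mural markers 1 was higher and 2 lower, and 2 of 3 were higher both among mesothelial and among neutrophil and mast cell markers. Mouse 5 of the 34 week group had the highest macrophage mean (8.76) and the lowest adipocyte mean (10.1), while its mouse 6 had the lowest macrophage mean (5.41) and the highest adipocyte mean (11.3). Mice 4 and 6 of that group, whose TMM factors lay within the range of the 8 week mice, were left out in an alternative chosen after seeing the data. Mouse 5 of the 8 week group also held epididymal and testicular transcripts, with a list mean of 1.60 against at most 0.24 in the others of its age. In a bulk library, more cells of a type and more RNA per cell cannot be told apart, and animals of each age were collected at a different time, so that handling and age cannot be told apart either.

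Between 8 and 34 weeks on chow, genes of macrophages, the lysosome, cholesterol synthesis, the respiratory chain and the ribosome were mostly higher, while genes of insulin signalling, branched-chain amino acid breakdown, TGF-beta signalling, the circadian clock and RNA splicing were more often lower. At an adjusted p under 0.05 by limma, 5914 of 10156 genes (58.2%) differed, of which 3620 (35.6%) were higher and 2294 (22.6%) lower at 34 weeks. The 2 ages did not overlap in 2527 genes (24.9%), of which 1493 were higher and 1034 lower at 34 weeks. List counts without overlap below are of 1 direction, and are to be read against that direction's count of the 10156 genes. In all, 1459 called genes differed by at least 2-fold, 911 of them upward. The CPM scale is shifted, since the median difference over all genes tested was 0.13, and the split changed to 2539 higher and 3129 lower with TMM factors (median -0.03) and to 2694 higher and 2992 lower with median-of-ratios factors (median -0.0035). The median of each list below is to be read against this 0.13, and its counts against the 35.6% higher and 22.6% lower among all genes tested. With the mean of the macrophage markers in each mouse as a covariate, which moves with age, 4032 genes were called, and lists whose calls it moved by more than 1.5 times are given with both counts. Among the markers given above, with this covariate 1 endothelial marker was higher, 1 mural marker was higher and 1 lower, and 0 neutrophil and mast cell markers were higher. The 20 week chow mice were read against the same 8 week mice. There the genes higher at 34 weeks had a median difference of 0.04 at 20 weeks and 0.64 at 34 weeks, and the genes lower at 34 weeks had medians of -0.09 and -0.65. These genes were chosen by the 34 week difference, which favours larger values at that time. Over all genes tested the median was -0.03 at 20 weeks and 0.13 at 34 weeks. The 20 week libraries were deeper, with 13091365 to 14292115 reads on genes. The older mice also differed more among themselves, with a median SD over genes of 0.17 at 8 weeks, 0.20 at 20 weeks and 0.31 at 34 weeks, and the SD was larger at 34 than at 8 weeks in 8613 genes (84.8%).

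**Figure D1:**
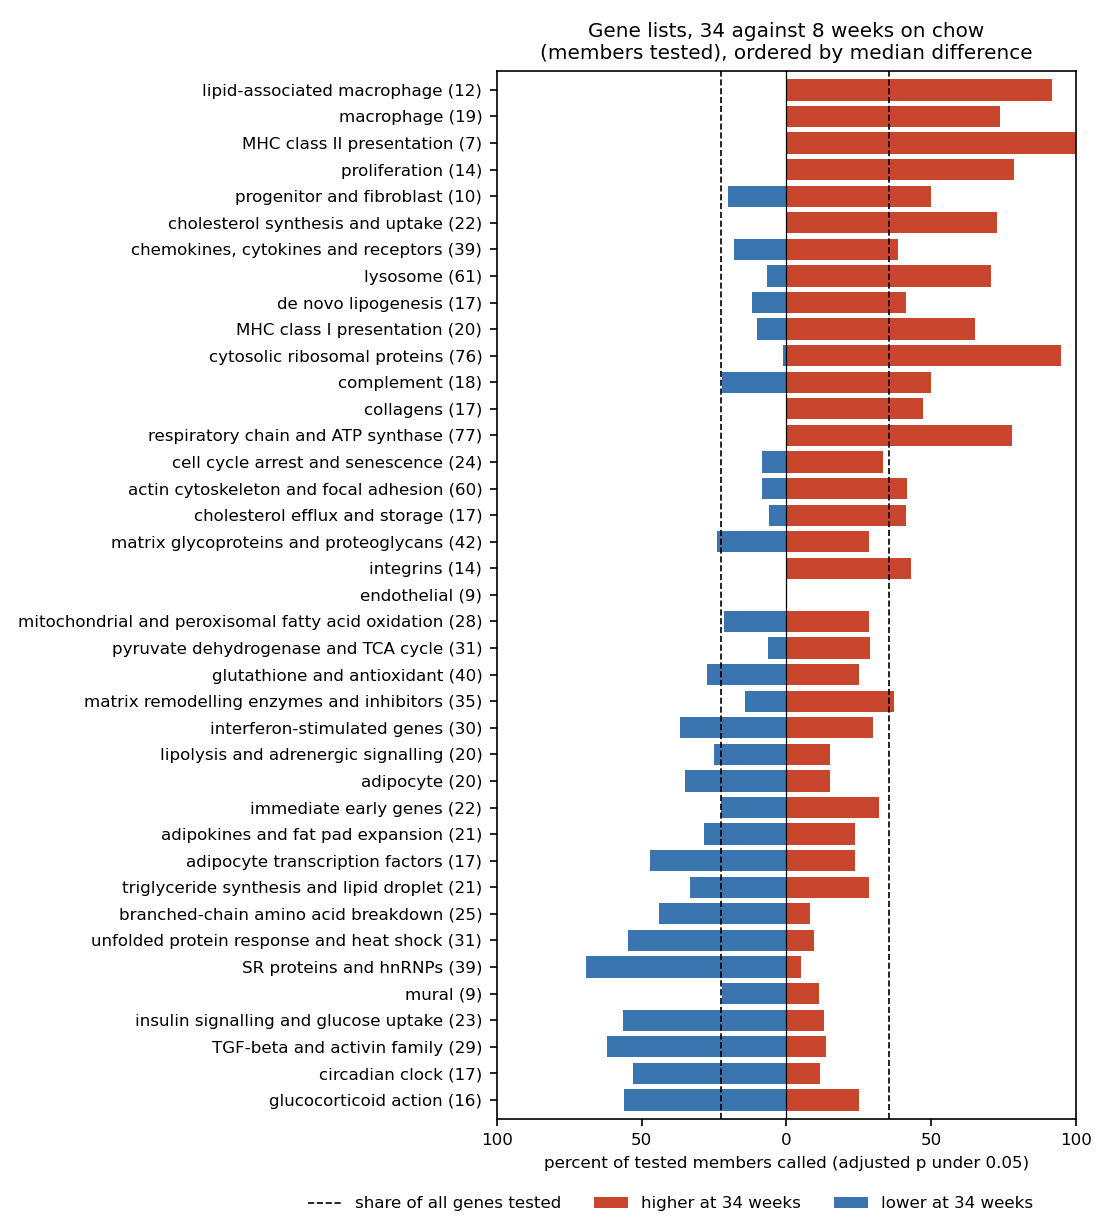
Percent of the tested members of each gene list with at least 5 members tested that were called higher (red, to the right) or lower (blue, to the left) at 34 than at 8 weeks on chow, with the number of members tested in parentheses and dashed lines at the shares of all genes tested (35.6% and 22.6%). Lists are ordered by their median difference, from glucocorticoid action (-0.73) to lipid-associated macrophage (2.69).

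Gpnmb, Spp1 and Trem2 had the largest rises without overlap. Gpnmb (chr6:49036518-49058182 on GRCm38), a transmembrane glycoprotein of lysosome-rich macrophages, measured 4.91 to 46.5 CPM at 8 weeks (median 19.3) and 71.1 to 1784 CPM at 34 weeks (median 933). All 8 older mice lay above all 6 younger ones, and the log2 difference was 4.83 ± 0.77 (SE, as for every difference), adjusted p = 0.00018. Spp1 (chr5:104435111-104441053), which encodes osteopontin, measured 0.652 to 13.4 CPM at 8 weeks (median 1.79) and 14.6 to 1298 CPM at 34 weeks (median 76.3). Its difference was 4.74 ± 0.81, adjusted p = 0.0003. Trem2 (chr17:48346401-48352276), a lipid-sensing receptor of myeloid cells, measured 1.57 to 6.58 CPM at 8 weeks (median 3.13) and 21.5 to 433 CPM at 34 weeks (median 87.6). Its difference was 4.50 ± 0.58, adjusted p = 4.5e-05. In the 20 week group 1 mouse stood far above the other 5 in these genes, with Gpnmb between 8.17 and 540 CPM and Trem2 between 2.13 and 56.7 CPM. Atp6v0d2, a subunit of the vacuolar proton pump, rose by 3.93 (adjusted p = 0.00027), and Anpep, the membrane aminopeptidase N, by 3.79 (adjusted p = 0.00014). The rest of the 10 largest were Rgs1, Wfdc17, Hpse (heparanase), Cyba (a subunit of the NADPH oxidase) and Arhgap25, with differences of 3.31 to 3.52. With the macrophage mean of each mouse as a covariate, the difference of Trem2 was 2.60 (adjusted p = 0.0013) and that of Gpnmb 3.16 (adjusted p = 0.015).

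Cish and Bach1 were among the 10 largest falls. Cish (chr9:107296659-107302784), a feedback inhibitor of cytokine signalling through STAT5, measured 148 to 252 CPM at 8 weeks (median 192) and 3.81 to 24.0 CPM at 34 weeks (median 13.5). Its difference was -3.89 ± 0.32, adjusted p = 1.6e-06. Bach1 (chr16:87698954-87733346), a haem-regulated transcriptional repressor, measured 742 to 926 CPM at 8 weeks (median 873) and 21.7 to 162 CPM at 34 weeks (median 95.9). Its difference was -3.41 ± 0.36, adjusted p = 1.1e-05. No older mouse reached the range of the young mice in Cish or Bach1. The 20 week medians were 256 and 984 CPM. Csf1, the growth factor of macrophages, measured 302 to 894 CPM at 8 weeks (median 409) and 21.6 to 92.0 CPM at 34 weeks (median 42.8) and fell (-3.37 ± 0.32, adjusted p = 4.5e-06), while macrophage markers rose. Rab15, a small GTPase of endosomal recycling, fell (-3.42 ± 0.22, adjusted p = 4.2e-07), as did Prg4, the proteoglycan lubricin (-3.38 ± 0.38, adjusted p = 1.6e-05). Acsm3, a medium-chain acyl-CoA synthetase, and Fosl1, a subunit of the AP-1 transcription factor, also fell (-3.34 ± 0.39, adjusted p = 1.9e-05 and -3.33 ± 0.52, adjusted p = 0.00016). Serpina3f and BC023105 differed by -3.68 and -3.56, but both have close paralogs, and the counting could split reads between copies.

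**Figure D2:**
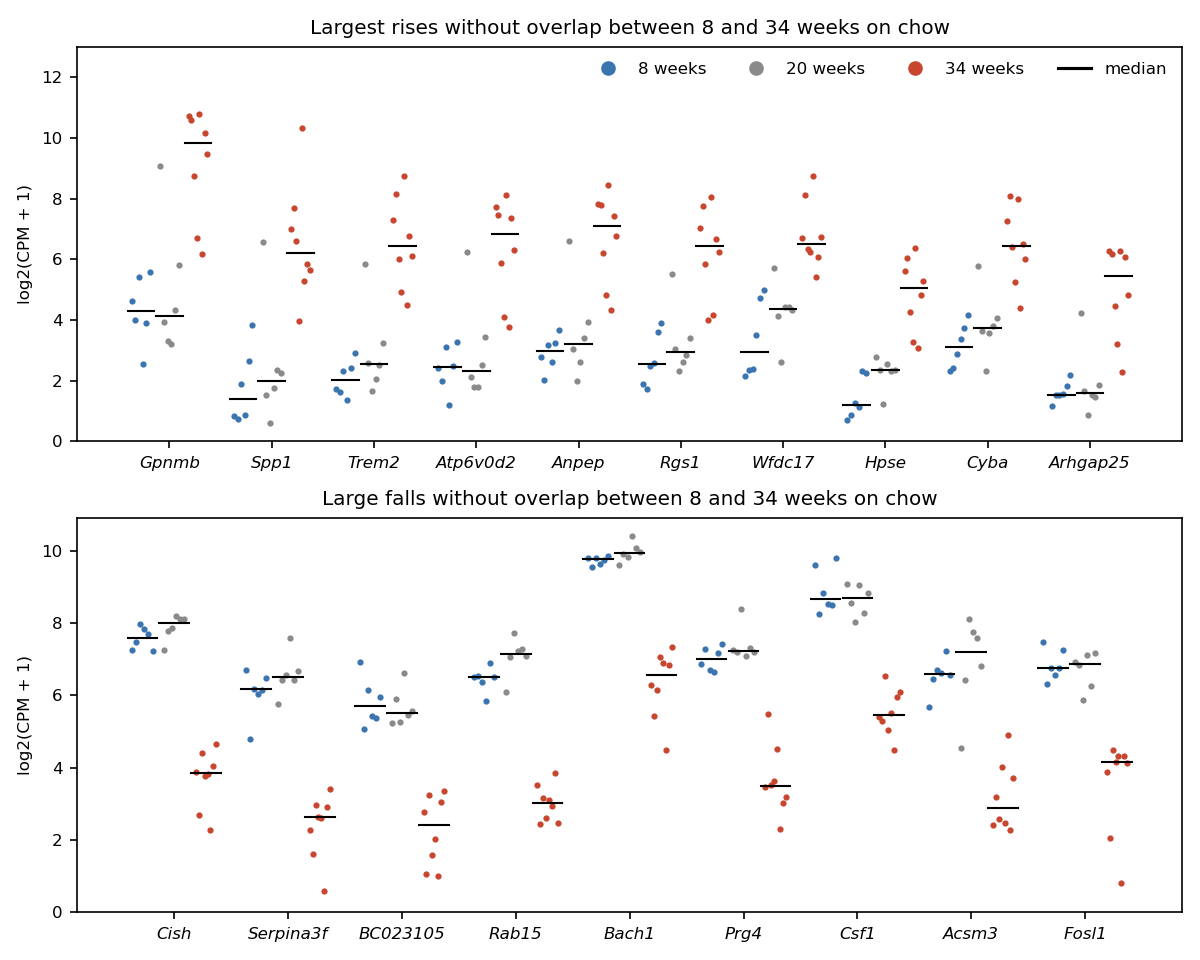
Level of the 10 genes with the largest rise (top) and 9 of the 10 with the largest fall (bottom) among called genes without overlap of the 8 and 34 week chow mice, as log2(CPM + 1), with 1 point per mouse and a line at the median. The 34 week mice (red) lie apart from the 8 week mice (blue) in every gene by the rule of choice, while the 20 week medians (grey) lie near those of 8 weeks in genes such as Cish (256 CPM at 20 and 192 CPM at 8 weeks) and higher in Wfdc17 and Hpse.

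Genes of myeloid cells were higher. Of 19 macrophage markers tested, 14 were higher and none lower at 34 weeks, with a median difference of 2.16, and of 12 markers of lipid-associated macrophages 11 were higher and none lower, with a median of 2.69. With the covariate, 5 macrophage markers were higher and 3 lower, and 5 of the lipid-associated markers were higher. The covariate is the mean of the same 19 macrophage markers. Their adjusted differences cancel on average by construction, so the split among them is no result. Lyz2, the lysozyme of myeloid cells, measured 79.4 to 654 CPM at 8 weeks (median 189.7) and 499 to 5613 CPM at 34 weeks (median 1976), and 7 of 8 older mice lay above all young ones (3.13 ± 0.59, adjusted p = 0.00057). Tyrobp, the signalling partner of Trem2, measured 5.63 to 40.7 CPM at 8 weeks (median 13.9) and 36.6 to 470.4 CPM at 34 weeks (median 143). Its difference was 3.24 ± 0.56, adjusted p = 0.00031. Itgax, the CD11c integrin chain of inflammatory macrophages and dendritic cells, measured 1.95 to 8.64 CPM at 8 weeks (median 4.40) and 4.32 to 80.7 CPM at 34 weeks (median 27.3), and the groups overlapped (2.23 ± 0.57, adjusted p = 0.0041). All 7 tested genes of MHC class II presentation were higher (median 1.91, of 11 in the table), led by Ctss, a protease that trims the invariant chain (3.79 ± 0.59, adjusted p = 0.00016), and H2-DMb1, which helps to load peptide (2.60 ± 0.49, adjusted p = 0.00061). With the covariate 1 of the 7 was called, and the median was 0.34. The filter let 422 genes in through their 34 week mean alone and 82 through their 8 week mean alone, among them 2 of the macrophage and 1 of the lipid-associated markers, so these counts describe the members tested and not all members.

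Most lysosomal genes were higher. The list holds hydrolases, proton pump subunits and membrane proteins that nearly every cell uses, and 43 of its 61 genes were higher and 4 lower (median 0.74), with 23 higher without overlap. Lamp2, a membrane protein of the lysosome, and Ids, iduronate sulfatase, were among the 4 that fell (-0.58 ± 0.15, adjusted p = 0.0037 and -0.59 ± 0.13, adjusted p = 0.0015). With the macrophage mean as a covariate, 18 of the 61 genes were higher and 5 lower. The sequence GTCACGTG, the core bound by the lysosomal regulator TFEB, stood on either strand within 250 bases before the start of 10 of the 49 lysosome genes with a RefSeq promoter window (20.4%), against 4.25% of the 8157 tested genes with a window and 2.11% of all 27025. Among genes called higher it stood in 4.38%, among genes called lower in 4.87% and among genes not called in 3.82%. Windows of 4 lysosome genes, which the naming rule does not cover and which were chosen after their values were seen, are given 5′ to 3′ along the gene with the match or its reverse complement in capitals, together with that of Spp1, whose capitals mark GAGGAAGT, the core of sites for the myeloid factor PU.1.
Lamp1, chr8:13159122-13159151, + strand: atgccgactggCACGTGACcacatcacgtg
Mcoln1, chr8:3500435-3500464, + strand: gggtcgcgcttGTCACGTGttcagttcagg
Glb1, chr9:114401017-114401046, + strand: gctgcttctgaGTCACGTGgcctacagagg
Lgmn, chr12:102439125-102439154, - strand: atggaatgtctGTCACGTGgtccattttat
Spp1, chr5:104434987-104435016, + strand: caaaaccagagGAGGAAGTgtaggagcagg
These sequences are from RefSeq on GRCm38.p6. Lamp1 encodes a major lysosomal membrane protein (0.58, adjusted p = 0.0035), Mcoln1 the calcium channel mucolipin (0.38, adjusted p = 0.0072), Glb1 beta-galactosidase (0.89, adjusted p = 0.0021) and Lgmn the protease legumain (2.57, adjusted p = 0.00098). The PU.1 core stood in the windows of 2 of 10 lipid-associated macrophage genes, in 3.5% of genes called higher, 2.27% of genes called lower and 2.79% of genes not called. TCAAGGTCA, the core of sites for oestrogen-related receptors, stood in 1 of 65 windows of the respiratory chain list and in 0.475%, 0.0553% and 0.235% of the same 3 groups. These shares are a description, and a match says only that the letters are there.

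Other immune genes moved in both directions. In the chemokine, cytokine and receptor list, 15 of 39 genes were higher, a share near the 35.6% of all genes, and 7 lower (median 0.79, and 0.52 over all 47 in the table). With the covariate the list turned, with 1 higher and 12 lower and a median of -0.50. Ccl8, a chemokine of tissue macrophages, measured 1.41 to 19.4 CPM at 8 weeks (median 2.99) and 18.3 to 519 CPM at 34 weeks (median 22.0), and 7 of 8 older mice lay above the young (2.93 ± 0.72, adjusted p = 0.0035), while Il1r1, the receptor of interleukin 1, measured 156 to 515 CPM at 8 weeks (median 204) and 16.2 to 48.2 CPM at 34 weeks (median 27.8) without overlap and fell (-3.14 ± 0.32, adjusted p = 7.1e-06). The first components of complement rose, with C1qa at 2.58 ± 0.59, adjusted p = 0.0021 and C1qb at 2.66 ± 0.55, adjusted p = 0.0011, whereas C2, a later component, fell (-1.54 ± 0.20, adjusted p = 4.9e-05) and Cfd, the adipocyte protease adipsin, measured 14950.2 to 19823 CPM at 8 weeks (median 17389.9) and 2680.4 to 16864 CPM at 34 weeks (median 5375). Its difference was -1.57 ± 0.35, adjusted p = 0.0018. Of 18 complement genes tested, 9 were higher and 4 lower (2 and 4 with the covariate), and the median was 0.58 over those tested, near 0 over all 22 in the table and -0.33 with the covariate. The interferon-stimulated list was split, with 9 of 30 higher and 11 lower and a median of 0.04 that becomes -0.13 with TMM factors and 0.32 without mice 4 and 6. With the covariate 2 were higher and 9 lower. The GTPases Irgm1, at 121 to 409 CPM at 8 weeks (median 199) and 20.9 to 56.0 CPM at 34 weeks (median 31.4), and Iigp1, at 138 to 458 CPM at 8 weeks (median 255) and 5.84 to 94.1 CPM at 34 weeks (median 31.0), fell without overlap (-2.62 and -3.29), while Oas1a, a sensor of double-stranded RNA, rose (2.16 ± 0.44, adjusted p = 0.00095). Genes of MHC class I presentation were higher in 13 of 20 and lower in 2, with 2 higher and 2 lower with the covariate. Nlrc5, the activator of that gene set, fell (-1.05 ± 0.19, adjusted p = 0.00051). Ighm, the immunoglobulin heavy chain of B cells and the 1 B cell marker tested, measured 111 to 353 CPM at 8 weeks (median 179) and 112 to 612 CPM at 34 weeks (median 469). Its difference was 1.12 ± 0.36, adjusted p = 0.015. Proliferation genes were higher in 11 of 14 tested of 26 in the table (median 1.18). Of these 14, 4 passed the filter through their 34 week mean alone, and 1 of 14 stayed called higher with the macrophage mean as a covariate. Top2a, the topoisomerase of dividing cells, measured 0.734 to 5.85 CPM at 8 weeks (median 1.73) and 3.30 to 50.3 CPM at 34 weeks (median 9.13). Its difference was 1.92 ± 0.51, adjusted p = 0.0052.

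**Figure D3:**
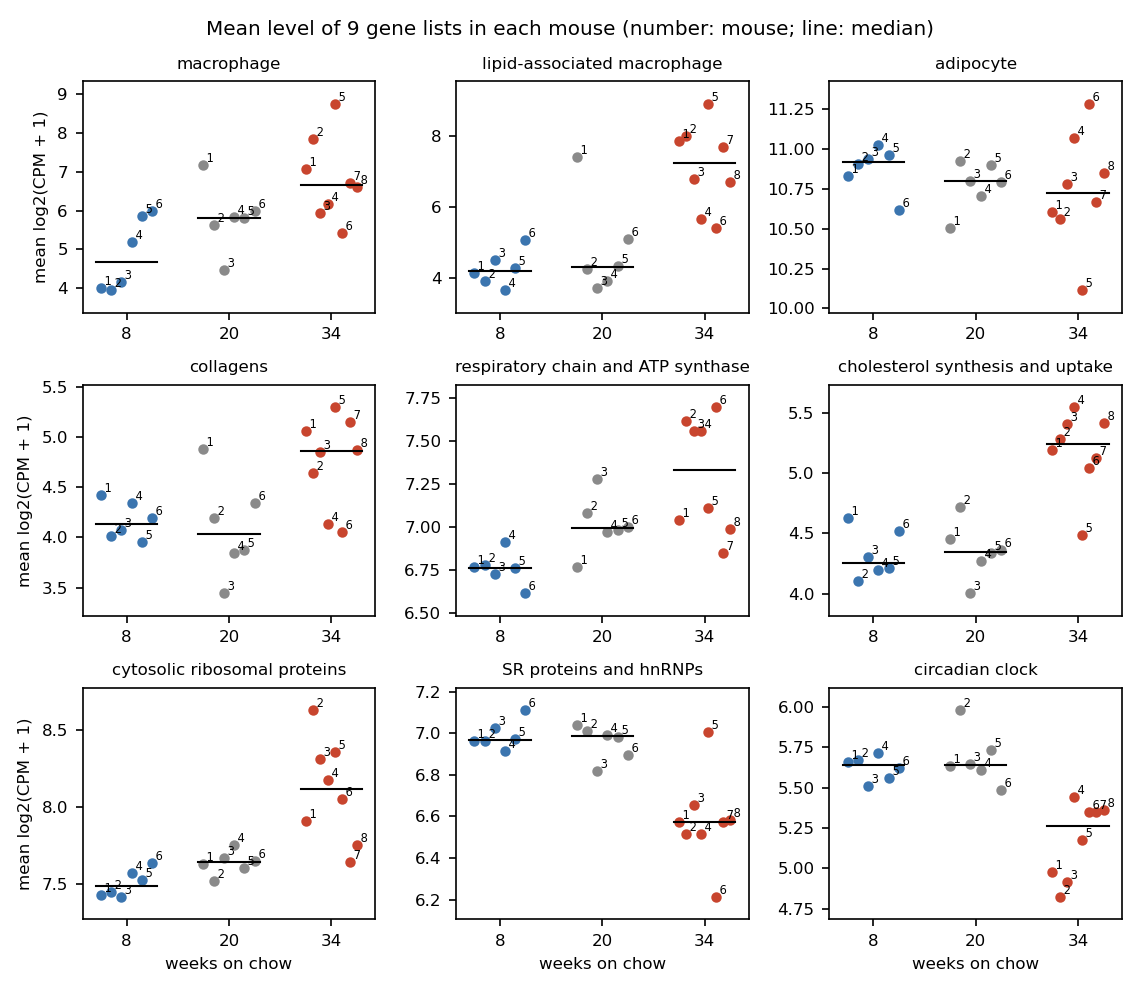
Mean log2(CPM + 1) over all table members of 9 gene lists in each chow mouse at 8, 20 and 34 weeks, with 1 numbered point per mouse and a line at the group median. The macrophage means run from 3.94 to 5.99 at 8 weeks and from 5.41 to 8.76 at 34 weeks, and mouse 6 of the 34 week group is its lowest in the macrophage and collagen lists and its highest in the adipocyte list.

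Several collagen genes rose and none fell. Of 17 collagens tested of 28 in the table, 8 were higher and none lower (median 0.54), and at 20 weeks the same 17 had a median of -0.37. Col1a1, the chain of the main fibrillar collagen, measured 9.46 to 41.2 CPM at 8 weeks (median 20.9) and 28.6 to 555 CPM at 34 weeks (median 139), and 6 of 8 older mice lay above all young mice (2.61 ± 0.56, adjusted p = 0.0014). Col16a1, a collagen at the surface of fibrils, rose by 2.70 (adjusted p = 0.0035), and Col6a3, a chain of the beaded filaments around adipocytes, measured 30.5 to 56.2 CPM at 8 weeks (median 49.6) and 40.5 to 155 CPM at 34 weeks (median 88.5). Its difference was 0.90 ± 0.27, adjusted p = 0.011. Col4a1, a basement membrane chain, measured 1189 to 2002 CPM at 8 weeks (median 1513) and 948 to 2363 CPM at 34 weeks (median 1348) and did not pass the test (-0.12 ± 0.22, adjusted p = 0.66). The mean of the collagen list was 4.13 and 4.05 in mice 4 and 6 and 4.64 to 5.30 in the other older mice, and 11 of the 17 were called higher without those 2 mice. Markers of progenitors and fibroblasts moved at the same time, with 5 of 10 higher and 2 lower (1 and 1 with the macrophage covariate, median 0.97, list mean 4.03 to 4.83 at 8 and 4.58 to 6.24 at 34 weeks), and their part in the collagen values was not tested. With the macrophage mean as a covariate, 4 of the 17 collagens were called higher, while their median was 0.58.

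Other matrix genes moved in both directions. In the list of glycoproteins and proteoglycans, 12 of 42 were higher and 10 lower (3 and 10 with the macrophage covariate), beside the 35.6% and 22.6% of all genes. Thbs1, thrombospondin, an activator of latent TGF-beta, measured 4426 to 9216 CPM at 8 weeks (median 6060.5) and 95.9 to 2263 CPM at 34 weeks (median 1235) and fell without overlap (-2.90 ± 0.57, adjusted p = 0.00073), as did Tnc, tenascin C, at 19.7 to 164 CPM at 8 weeks (median 43.5) and 1.19 to 14.3 CPM at 34 weeks (median 5.72) (-3.09 ± 0.51, adjusted p = 0.00023). Fbln2 and Ecm1, proteins of elastic fibres and basement membranes, rose (2.37 ± 0.63, adjusted p = 0.0054 and 1.68 ± 0.34, adjusted p = 0.00091), and Fn1, fibronectin, measured 44.9 to 387 CPM at 8 weeks (median 113) and 44.4 to 509 CPM at 34 weeks (median 158) and did not pass the test (0.41 ± 0.55, adjusted p = 0.53). Among remodelling enzymes and their inhibitors 13 of 35 were higher, a share near the 35.6% of all genes, and 5 lower. The median was 0.04, and it becomes -0.12 with TMM factors and 0.39 without mice 4 and 6. Over all 42 in the table the median was 0.37, and with the covariate 7 were higher and 8 lower. The aggrecanases Adamts1, at 1391 to 1891 CPM at 8 weeks (median 1746) and 176 to 824 CPM at 34 weeks (median 308), and Adamts4, at 21.4 to 52.1 CPM at 8 weeks (median 40.0) and 0.423 to 20.7 CPM at 34 weeks (median 5.63), fell without overlap (-2.28 and -2.66), and Adamts4 measured 101 to 326 CPM at 20 weeks (median 184), above both other times. Timp2, an inhibitor of matrix metalloproteases, rose (2.66 ± 0.46, adjusted p = 0.00034). Of 60 genes of the actin cytoskeleton and focal adhesions, 25 were higher and 5 lower (median 0.39, and 25 and 9 with TMM factors). With the covariate 10 were higher and 6 lower (median 0.09). The list had rises in Capg and Tmsb4x, both actin-binding proteins abundant in leukocytes (2.86 and 2.75), and falls in the adhesion proteins Tns1 and Vcl (-0.89 and -0.87). Of 14 integrins tested (25 are in the table), 6 were higher and none lower, and with the covariate 2 were higher and 4 lower.

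TGF-beta and activin genes were more often lower. Of 29 tested of 35 in the table, 18 were lower and 4 higher (median -0.59, against 22.6% lower among all genes), 8 of them lower without overlap. The median over all 35 was -0.28, and with the macrophage covariate 11 were lower and 1 higher. Acvr1b, an activin type I receptor, measured 129 to 209 CPM at 8 weeks (median 153) and 19.5 to 76.8 CPM at 34 weeks (median 45.4). Its difference was -1.89 ± 0.23, adjusted p = 2.9e-05. Bmpr2, the type II receptor of bone morphogenetic proteins, measured 41.5 to 46.9 CPM at 8 weeks (median 43.9) and 4.32 to 31.2 CPM at 34 weeks (median 14.5). Its difference was -1.54 ± 0.32, adjusted p = 0.0011. No older mouse reached the young range in either gene. Acvr1c, the activin receptor ALK7 of adipocytes, measured 174 to 372 CPM at 8 weeks (median 261) and 132 to 262 CPM at 34 weeks (median 178), and 4 of 8 older mice lay below all young mice (-0.59 ± 0.19, adjusted p = 0.014). The ligand genes Tgfb1 and Gdf15 rose, with Tgfb1 at 12.2 to 25.6 CPM at 8 weeks (median 23.03) and 25.9 to 146 CPM at 34 weeks (median 53.2) (1.37 ± 0.32, adjusted p = 0.0026) and Gdf15, a stress-induced member of the family, at 6.34 to 18.1 CPM at 8 weeks (median 11.7) and 15.0 to 216 CPM at 34 weeks (median 90.5) (2.75 ± 0.53, adjusted p = 0.00065). With the macrophage mean as a covariate, Tgfb1 differed by 0.33 (adjusted p = 0.34) and Acvr1b by -1.73 (adjusted p = 0.0017).

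Adipocyte identity genes showed no common direction. Of 20 adipocyte markers 3 were higher and 7 lower (median -0.15), and with the macrophage covariate 6 were higher and 1 lower. Adipoq, adiponectin, measured 4932 to 5892 CPM at 8 weeks (median 5581) and 3442 to 6396 CPM at 34 weeks (median 5011) and did not pass the test (-0.19 ± 0.15, adjusted p = 0.28), nor did Cebpa, a master regulator of the adipocyte (0.19 ± 0.18, adjusted p = 0.39). Pparg, the nuclear receptor of adipocyte differentiation, measured 174 to 267 CPM at 8 weeks (median 220.1) and 239.9 to 478 CPM at 34 weeks (median 269.8) and was called higher (0.44 ± 0.17, adjusted p = 0.035), a call that was lost with TMM factors (0.27, adjusted p = 0.24). Among 17 transcription factors 4 were higher and 8 lower (5 and 5 with the covariate). Klf15, a factor induced by fasting and glucocorticoids, measured 18.7 to 31.5 CPM at 8 weeks (median 27.5) and 48.4 to 178 CPM at 34 weeks (median 67.1) and rose without overlap (1.49 ± 0.26, adjusted p = 0.00033). Ppargc1a and Ebf2, regulators of mitochondrial and brown-type genes, fell without overlap (-1.20 ± 0.20, adjusted p = 0.00024 and -1.13 ± 0.19, adjusted p = 0.00028). Ppargc1b, the paralog of Ppargc1a, went the other way without overlap, at 1.59 to 5.02 CPM at 8 weeks and 5.71 to 9.84 CPM at 34 weeks. The lipid droplet coat protein Plin4, at 4967 to 6738 CPM at 8 weeks (median 6105) and 1504 to 3904 CPM at 34 weeks (median 2839), fell (-1.21 ± 0.19, adjusted p = 0.00019), and Plin2, the coat protein of smaller droplets that macrophages also use, rose (0.95 ± 0.23, adjusted p = 0.0031, and 0.26, adjusted p = 0.35, with the macrophage mean as a covariate).

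Among secreted factors and genes of fat pad expansion, 5 of 21 were higher and 6 lower. Lep, leptin, measured 654 to 1278 CPM at 8 weeks (median 723) and 591 to 3833 CPM at 34 weeks (median 1631), and 38.2 to 674 CPM at 20 weeks (median 380.3). Its difference between 8 and 34 weeks did not pass the test (0.97 ± 0.40, adjusted p = 0.051). Sfrp5, a secreted inhibitor of Wnt signalling, measured 15.1 to 48.1 CPM at 8 weeks (median 27.6) and 44.5 to 506 CPM at 34 weeks (median 198), and 7 of 8 older mice lay above all young mice (2.55 ± 0.54, adjusted p = 0.0013). Mest, an imprinted gene linked to fat pad expansion, measured 181 to 546 CPM at 8 weeks (median 302) and 77.5 to 898 CPM at 34 weeks (median 302) and did not pass the test (-0.19 ± 0.49, adjusted p = 0.75), although its 20 week median was 78.6 CPM. Nrg4, a growth factor of adipocytes, fell without overlap (-1.69 ± 0.30, adjusted p = 0.00034).

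Genes of cholesterol synthesis were higher, and genes of fatty acid synthesis moved in both directions. Of 22 genes of cholesterol synthesis and uptake 16 were higher and none lower (median 0.87, 0.71 with TMM factors). Fdps, farnesyl diphosphate synthase, measured 12.5 to 18.9 CPM at 8 weeks (median 14.3) and 31.4 to 155 CPM at 34 weeks (median 86.8). Its difference was 2.31 ± 0.27, adjusted p = 2.1e-05. Dhcr7, the last enzyme of the pathway, measured 3.96 to 7.58 CPM at 8 weeks (median 5.00) and 17.1 to 29.0 CPM at 34 weeks (median 23.4). Its difference was 1.94 ± 0.14, adjusted p = 7.5e-07. The 2 ages did not overlap in either gene. Of 17 genes of cholesterol efflux and storage 7 were higher and 1 lower (3 and 1 with the macrophage covariate). In de novo lipogenesis 7 of 17 genes were higher, a share near the 35.6% of all genes, and 2 were lower (median 0.65, and 0.28 without mice 4 and 6). The mean of the list was 7.53 to 7.95 in the young mice, 9.57, 9.13 and 9.15 in mice 4, 6 and 8 of the older group and 7.26 to 8.52 in the rest of it. With the macrophage covariate 11 of the genes were higher and 1 lower. Scd2, a stearoyl-CoA desaturase, measured 27.1 to 159 CPM at 8 weeks (median 63.3) and 144 to 1736 CPM at 34 weeks (median 905), where the lowest older mouse was mouse 5 and the next lowest stood at 768 CPM (3.79 ± 0.51, adjusted p = 5.9e-05). Elovl6, the elongase of palmitate, measured 10.2 to 26.7 CPM at 8 weeks (median 17.6) and 17.5 to 292 CPM at 34 weeks (median 104). Its difference was 2.34 ± 0.51, adjusted p = 0.0016. Acss2, which makes cytosolic acetyl-CoA from acetate, measured 64.4 to 99.5 CPM at 8 weeks (median 80.4) and 85.0 to 1357 CPM at 34 weeks (median 283). Its difference was 2.09 ± 0.49, adjusted p = 0.0026. In the other direction, Mlxipl, the glucose-responsive factor ChREBP, measured 102 to 135 CPM at 8 weeks (median 111) and 43.7 to 85.4 CPM at 34 weeks (median 58.2) and fell without overlap (-0.93 ± 0.15, adjusted p = 0.00024). Acacb, the acetyl-CoA carboxylase that restrains fatty acid oxidation, fell (-1.56 ± 0.36, adjusted p = 0.0021).

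Storage and release of triglyceride showed no common direction. Of 21 genes of triglyceride synthesis and lipid droplets 6 were higher and 7 lower, and of 20 genes of lipolysis and adrenergic signalling 3 were higher and 5 lower. With the macrophage covariate the counts were 7 and 3 in the former and 5 and 1 in the latter. G0s2, the inhibitor of the lipase ATGL, measured 15.6 to 44.8 CPM at 8 weeks (median 27.2) and 131 to 350.2 CPM at 34 weeks (median 206) and rose without overlap (2.94 ± 0.28, adjusted p = 5e-06). Pnpla2, which encodes ATGL itself, measured 2912 to 4324 CPM at 8 weeks (median 4045) and 1381 to 3325 CPM at 34 weeks (median 2288) and fell (-0.81 ± 0.18, adjusted p = 0.0018). Mogat2, a monoacylglycerol acyltransferase, rose (2.75 ± 0.46, adjusted p = 0.00026), and Gpam, which starts glycerolipid synthesis, measured 336 to 517 CPM at 8 weeks (median 444) and 70.9 to 274 CPM at 34 weeks (median 144) and fell without overlap (-1.59 ± 0.27, adjusted p = 0.00031). Adrb3, the beta-3 adrenergic receptor of adipocytes, measured 499.6 to 916 CPM at 8 weeks (median 813) and 216 to 971 CPM at 34 weeks (median 440.0) and did not pass the test (-0.61 ± 0.33, adjusted p = 0.13), while Pde3b, the phosphodiesterase through which insulin restrains lipolysis, fell without overlap (-1.005 ± 0.18, adjusted p = 0.00034). Aqp7, the glycerol channel, rose (0.68 ± 0.13, adjusted p = 0.0008).

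Genes of insulin signalling and glucose uptake were lower in 13 of 23 and higher in 3 (median -0.50). Slc2a1, the basal glucose transporter GLUT1, measured 67.7 to 164 CPM at 8 weeks (median 121) and 14.7 to 35.7 CPM at 34 weeks (median 22.7). Its difference was -2.34 ± 0.21, adjusted p = 3.1e-06. Hk2, hexokinase 2, measured 697 to 1121 CPM at 8 weeks (median 924) and 113 to 276 CPM at 34 weeks (median 195). Its difference was -2.26 ± 0.19, adjusted p = 1.9e-06. Both fell without overlap, and their 20 week medians were 124 and 1144 CPM. Slc2a4, the insulin-responsive transporter GLUT4, measured 164 to 241 CPM at 8 weeks (median 213) and 151 to 360.2 CPM at 34 weeks (median 203) and did not pass the test (0.18 ± 0.19, adjusted p = 0.43). Irs3, an insulin receptor substrate of rodent adipocytes, rose without overlap (1.35 ± 0.19, adjusted p = 7.2e-05), and Enpp1, a pyrophosphatase that binds the insulin receptor, rose (2.31 ± 0.48, adjusted p = 0.0012). Breakdown of branched-chain amino acids was lower in 11 of 25 genes and higher in 2 (median -0.28), with Aldh6a1 and Acadsb, enzymes of valine and isoleucine breakdown, both lower without overlap (-1.23 ± 0.16, adjusted p = 3.8e-05 and -0.93 ± 0.13, adjusted p = 5.9e-05). With TMM factors neither higher call held and 14 were lower, and without mice 4 and 6 of the older group 17 were lower. With the macrophage covariate the list had no direction, with 3 higher and 3 lower and a median of -0.04.

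Mitochondrial genes did not move as a block. The subunits of the respiratory chain and ATP synthase were higher in 60 of 77 and lower in none (median 0.52), 19 of them without overlap. Under TMM factors the median was 0.36 and 32 were called higher. Ndufa11, a subunit of complex I, measured 30.2 to 40.2 CPM at 8 weeks (median 35.6) and 54.5 to 91.6 CPM at 34 weeks (median 71.1). Its difference was 0.99 ± 0.15, adjusted p = 0.00011. Cox8b, a subunit of complex IV, measured 3.73 to 8.61 CPM at 8 weeks (median 5.76) and 6.66 to 23.7 CPM at 34 weeks (median 18.0). Its difference was 1.37 ± 0.23, adjusted p = 0.00028. The mean of the 78 genes in the table was 6.62 to 6.91 in the young mice, and in the older mice it was 7.56 to 7.70 in mice 2, 3, 4 and 6 and 6.85 to 7.11 in mice 1, 5, 7 and 8. The pyruvate dehydrogenase and TCA cycle list was higher in 9 of 31 and lower in 2 (4 and 2 with TMM factors, and 14 and 1 with the macrophage covariate), with a rise in Mpc2, a subunit of the mitochondrial pyruvate carrier, that had no overlap (0.99 ± 0.20, adjusted p = 0.00078). Of 28 fatty acid oxidation genes 8 were higher and 6 lower (6 and 2 with the macrophage covariate), beside the 35.6% and 22.6% of all genes. Etfb, which passes electrons from acyl-CoA dehydrogenases to the respiratory chain, rose (0.74 ± 0.14, adjusted p = 0.00069). Ppara, a nuclear receptor that drives fatty acid oxidation genes, measured 10.2 to 15.6 CPM at 8 weeks (median 12.8) and 2.70 to 8.44 CPM at 34 weeks (median 5.24) and fell without overlap (-1.09 ± 0.19, adjusted p = 0.00034).

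Ribosomal protein and splicing factor genes moved in opposite directions. Of 76 cytosolic ribosomal protein genes 72 were higher and 1 lower (median 0.60, 0.44 with TMM factors, with 60 higher, and 0.43 with the macrophage covariate, with 22 higher), and 36 were higher without overlap. Rpl41 measured 200.4 to 256 CPM at 8 weeks (median 235) and 334 to 778 CPM at 34 weeks (median 496). Its difference was 1.04 ± 0.17, adjusted p = 0.00022. Rpl24, the 1 member that fell, measured 42.6 to 54.9 CPM at 8 weeks (median 50.9) and 12.7 to 38.8 CPM at 34 weeks (median 28.4). Its difference was -0.89 ± 0.21, adjusted p = 0.0023. Ribosomal protein genes have many pseudogene copies, and the counting could split their reads. Of 39 SR proteins and hnRNPs, the RNA-binding proteins that guide splicing, 27 were lower and 2 higher (median -0.36), and 14 were lower without overlap. With the macrophage covariate 29 were lower and 0 higher. Hnrnpu, which binds nascent RNA in the nucleus, measured 548 to 665 CPM at 8 weeks (median 603) and 249.6 to 394 CPM at 34 weeks (median 281). Its difference was -1.04 ± 0.10, adjusted p = 5.5e-06. Srrm2, a scaffold of nuclear speckles, measured 472 to 620.2 CPM at 8 weeks (median 558) and 129 to 384 CPM at 34 weeks (median 199.7). Its difference was -1.40 ± 0.23, adjusted p = 0.00022. In the older mice the mean of the list was 6.21 to 6.66 except in mouse 5, where it was 7.01, within the range of 6.91 to 7.11 of the young mice.

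The direction of change went with the length of the gene. Across the 10008 tested genes (98.5%) whose exonic length was found in GENCODE vM21, Spearman's rho between length and the difference was -0.384, a description over genes, which share libraries and are not replicates. Length here joins the exons of all annotated transcripts of a gene. It can exceed the length of the transcript present in these cells, so a gene may stand in too long a class. Of 162 genes under 1 kb, 75.3% were higher and 1.23% lower, and of 1960 genes over 8 kb, 13.9% were higher and 42.3% lower. The same rho was -0.198 for the 20 week against the 8 week chow mice, -0.169 for the 34 week against the 8 week HFD mice and -0.333 without mice 4 and 6. Between length and the interaction of time and diet, described below, rho was -0.281. The ribosomal protein and respiratory chain genes have median lengths of 1806 and 1756 bases, and the splicing factors of 6466 bases, against 4665 bases for all tested genes. Most ribosomal protein and respiratory chain genes are short, and the gap to other genes of their length was small in the short classes. Under 1 kb the median difference was 0.72 for 10 ribosomal protein genes and 0.63 for 18 respiratory chain genes, against 0.69 for all genes of the class. At 1 to 2 kb it was 0.65 for 31 and 0.61 for 28, against 0.51. At 2 to 4 kb it was 0.54 for 29 and 0.42 for 20, against 0.29, and at 4 to 8 kb 0.62 for 6 and 0.55 for 10, against 0.04. Splicing factors lay below the other genes in the 3 classes that hold at least 5 of them. Their medians were -0.33 for 9 genes at 2 to 4 kb, -0.32 for 21 at 4 to 8 kb and -0.81 for 8 over 8 kb, where all genes had -0.25. The part of length in the list results was not tested.

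**Figure D4:**
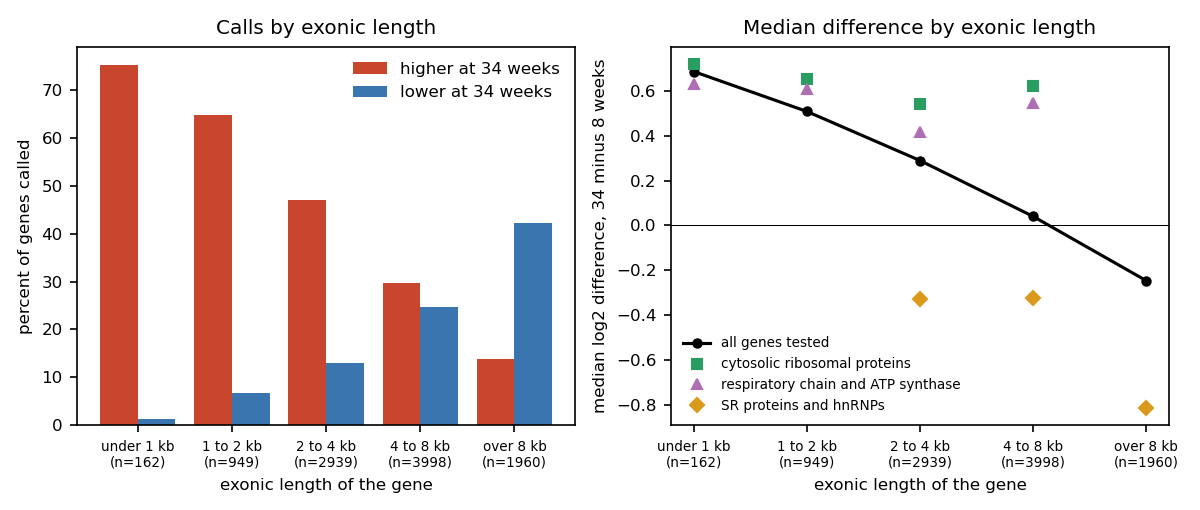
Left, percent of tested genes called higher (red) or lower (blue) at 34 than at 8 weeks on chow by exonic length class, where length joins the exons of all annotated transcripts. Right, median log2 difference of all tested genes of each class (black) and of the members of 3 gene lists in classes with at least 5 members. The share called higher falls from 75.3% under 1 kb to 13.9% over 8 kb, while the ribosomal protein genes lie between 0.54 and 0.72 in all 4 of their classes.

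Clock and stress genes made up another group of falls. Of 17 clock genes 9 were lower and 2 higher (median -0.66). Per2 measured 67.0 to 143 CPM at 8 weeks (median 103) and 9.81 to 50.1 CPM at 34 weeks (median 31.6) and fell without overlap (-1.82 ± 0.29, adjusted p = 0.00019). Hlf, an output factor of the clock, fell (-1.79 ± 0.28, adjusted p = 0.00017), whereas Per1, which glucocorticoids also induce, measured 29.96 to 54.5 CPM at 8 weeks (median 40.7) and 78.3 to 135 CPM at 34 weeks (median 115) and rose without overlap (1.38 ± 0.16, adjusted p = 1.8e-05). The methods give the same hours of fasting for all times. Of 16 genes of glucocorticoid action 9 were lower and 4 higher (median -0.73, with 7 lower and 2 higher with the macrophage covariate), with falls in Mt2, a metallothionein (-1.30 ± 0.21, adjusted p = 0.0002), and H6pd, which feeds the enzyme that activates corticosterone (-1.22 ± 0.20, adjusted p = 0.0002), and a rise in Dusp1, a phosphatase of MAP kinases (1.496 ± 0.29, adjusted p = 0.00068). In the unfolded protein response and heat shock list 17 of 31 were lower and 3 higher (median -0.31). Chac1, a target of the stress factor ATF4, measured 70.9 to 146 CPM at 8 weeks (median 92.0) and 3.88 to 39.7 CPM at 34 weeks (median 25.5) without overlap (-2.24 ± 0.41, adjusted p = 0.00044), and Hspa1b, a heat-inducible chaperone with a near-identical neighbour, fell (-2.07 ± 0.35, adjusted p = 0.00028).

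Of 22 immediate early genes 7 were higher and 5 lower, shares near the 35.6% and 22.6% of all genes. With the macrophage covariate 2 were higher and 10 lower. Fos, a subunit of AP-1, measured 261 to 444 CPM at 8 weeks (median 401) and 1185 to 2374 CPM at 34 weeks (median 1598) and rose (2.12 ± 0.17, adjusted p = 1.6e-06). Myc, a growth-related transcription factor, measured 363 to 451 CPM at 8 weeks (median 390.2) and 33.6 to 160.2 CPM at 34 weeks (median 115) and fell (-2.07 ± 0.30, adjusted p = 0.00011). Neither gene overlapped between the ages. Of 40 glutathione and antioxidant genes 10 were higher and 11 lower (14 and 8 with the covariate), with a median of 0.08 that becomes -0.08 with TMM factors. Hmox1, haem oxygenase 1, a gene that Bach1 is known to repress, measured 530.1 to 1943 CPM at 8 weeks (median 1079.7) and 47.5 to 532 CPM at 34 weeks (median 208) and fell (-2.47 ± 0.42, adjusted p = 0.00031), as did Gpx3, the secreted glutathione peroxidase (-1.89 ± 0.34, adjusted p = 0.00038), while Prdx5, a mitochondrial peroxiredoxin, rose (0.87 ± 0.12, adjusted p = 8.8e-05). Among 24 genes of cell cycle arrest and senescence 8 were higher, a share near the 35.6% of all genes, and 2 lower. Cdkn1a, the inhibitor p21, measured 36.9 to 67.6 CPM at 8 weeks (median 58.6) and 31.9 to 254 CPM at 34 weeks (median 160.1). Its difference was 1.30 ± 0.37, adjusted p = 0.0087. Bbc3 and Bax, which promote cell death downstream of p53, rose without overlap (1.76 ± 0.19, adjusted p = 1.1e-05 and 1.31 ± 0.20, adjusted p = 0.00014). Cdkn2a, the inhibitor p16, did not reach the filter, with at most 0.663 CPM at 8 weeks and 3.88 CPM at 34 weeks.

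Whether these changes also took place under a high fat diet (HFD) was asked with the 6 HFD mice at 8 weeks and the 6 at 34 weeks, which share no animal with the chow groups. On HFD 4836 of the same 10156 genes differed between the times, 2902 upward and 1934 downward. Both diets changed in the same direction in 1904 genes upward and 976 downward, which are together 48.7% of those called on chow and 59.6% of those called on HFD. The difference between the changes, tested as an interaction, passed the threshold in 2311 genes (22.8%), with the chow change above the HFD change in 1294 and below it in 1017. Of 19 macrophage markers 14 rose on chow and 17 on HFD, and 1 passed the interaction test. Of 76 ribosomal protein genes 72 rose on chow and 64 on HFD, and 2 passed that test.

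The changes of lipid synthesis and collagen genes differed between the diets. In de novo lipogenesis 11 of 17 genes differed in the interaction, all with the chow change above the HFD change (median 0.65 on chow, 0.28 there without mice 4 and 6, and -1.03 on HFD). Scd2 differed by 3.79 on chow and -1.18 on HFD (interaction 4.96, adjusted p = 0.00025), Acss2 by 2.09 and -1.44 (interaction 3.53, adjusted p = 0.0007) and Elovl6 by 2.34 and -1.03 (interaction 3.37, adjusted p = 0.0012). Of 22 cholesterol genes 11 differed, 10 of them with the chow change above, and the list median was -0.16 on HFD. The respiratory chain was higher in 60 of 77 genes on chow and in 2 on HFD, and 18 passed the interaction test, a share near the 22.8% of all genes, all with the chow change above. Of the 17 collagens 7 differed, all with the chow change above (medians 0.54 and -0.58), and Col1a1 differed by 2.61 on chow and 0.19 on HFD (interaction 2.42, adjusted p = 0.027). Sfrp5 differed by 2.55 and -0.54 (interaction 3.10, adjusted p = 0.0029) and Adrb3 by -0.61 and -2.71 (interaction 2.10, adjusted p = 0.003). All these values are changes within a diet, and whether the diets already differed in level at the earliest time was not tested. By qPCR of adipocytes, the paper reports Col1a1, Col6a3 and Fn1 as higher on HFD than on chow from its earliest time. A small or negative change on HFD is therefore no sign of a low level there.

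In the other direction, the chow change was below the HFD change in many splicing factors and in several of the largest chow falls. Those falls were chosen by the same chow difference that enters the interaction, which favours this direction. Of 39 SR proteins and hnRNPs 23 differed in the interaction, all with the chow change below, and 14 of the 39 rose on HFD. The interaction also went with exonic length (rho -0.281 over genes). The part of length in this count and in that of the respiratory chain was not tested. Cyp2f2, a cytochrome P450, measured 45.9 to 204 CPM at 8 weeks (median 73.9) and 3.21 to 29.2 CPM at 34 weeks (median 7.93) on chow and differed by -3.24 there and by 0.78 on HFD (interaction -4.02, adjusted p = 0.00029). Cyp1b1, a cytochrome P450 that acts on steroids, differed by -3.09 and 0.29 (interaction -3.38, adjusted p = 0.00075) and Prg4 by -3.38 and -0.02 (interaction -3.36, adjusted p = 0.00076). Gnal, a G protein alpha subunit, did not pass the test on chow (-0.90 ± 0.58, adjusted p = 0.19) and differed by 2.56 on HFD (interaction -3.47, adjusted p = 0.0019). The falls of Csf1, Tnc and Thbs1 were found on both diets (-2.51, -2.44 and -2.43 on HFD), with interactions of -0.87, -0.65 and -0.47 that did not pass the threshold (adjusted p of 0.33, 0.62 and 0.67).

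**Figure D5:**
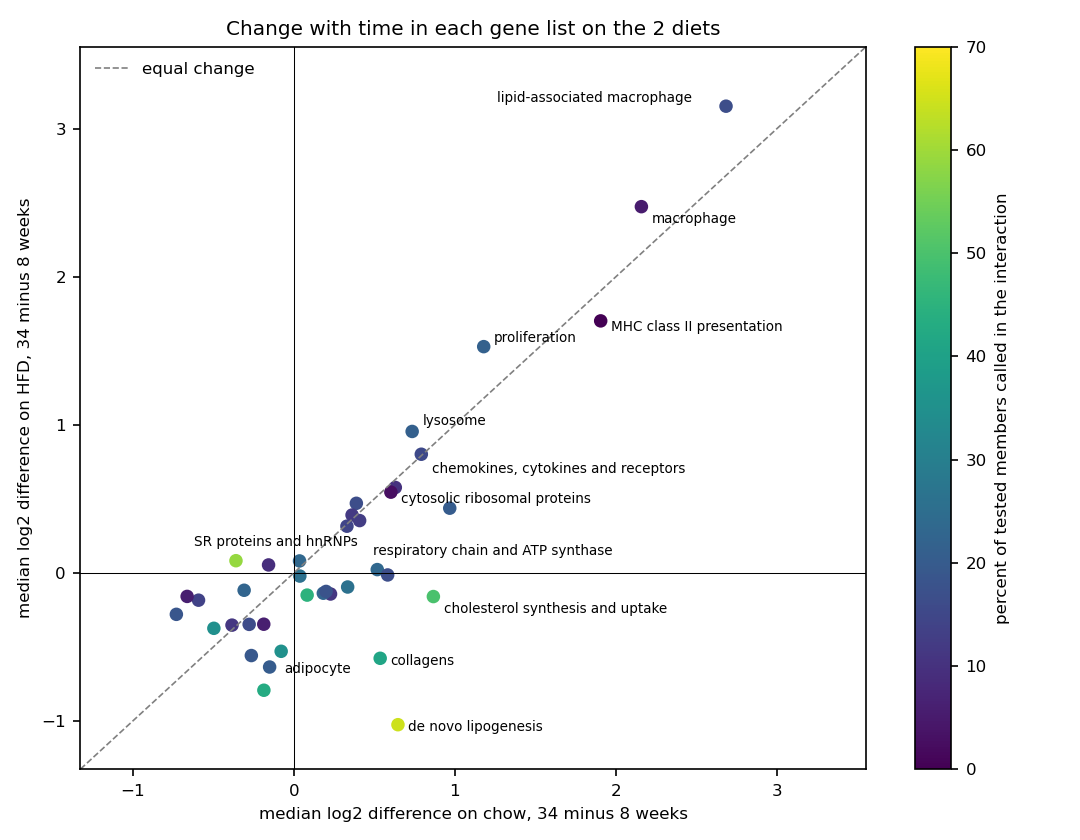
Median log2 difference between 34 and 8 weeks on chow (horizontal) and on HFD (vertical) for each gene list with at least 5 members tested, colored by the percent of members called in the interaction, with a dashed line where both changes are equal. Macrophage lists lie near the line at the upper right, while de novo lipogenesis (0.65 on chow and -1.03 on HFD), collagens and cholesterol synthesis lie below it.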

How the data were processed

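RNA-seq of perigonadal adipocytes was analysed in 38 mice, of which 14 were compared and 12 HFD mice and 6 chow mice at 20 weeks gave the interaction and the levels between. According to the submitters' processing notes the reads were processed with STAR, Subread featureCounts 1.5.1, edgeR and limma on mm10, and the methods name TMM. The deposited CPM values, made by the authors with technical replicates merged, have the same sum in every mouse, which leaves no sign of a TMM factor. All values (100%) were whole multiples of 1 read within 0.1 reads, and the reads recovered in this way served edgeR and DESeq2. Of the 29132 genes, 27250 (93.5%) matched a RefSeq position, and 13 listed symbols had no match and were not analysed here.

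Values were taken as log2(CPM + 1) with a pseudocount of 1, and limma 3.58.1 (R 4.3.3) was fitted with a mean-variance trend, two-sided. P-values were adjusted by Benjamini and Hochberg's method across all tested genes, and genes under 0.05 were called. Over the 43 pairs of mice within either age, none was as close as sampling noise (chi-square per degree of freedom of at least 10.6). Alternatives used edgeR 4.0.16 and DESeq2 1.42.0 and other scalings, filters, weights and samples. The method was also run on simulated data. These had the same spread at both ages and few changed genes, unlike the mice compared, so they do not vouch for the counts here. Named genes were the 10 largest rises and falls without overlap, the 2 largest called rises and falls of each list, 20 genes always named (of which Adgre1 was not analysed here) and the 5 largest interaction terms in each direction, and not every one is printed. A few of the named genes are not reported here. Members, lists and tests were chosen with earlier results of these data known. Reads are not independent molecules, so the reads per mouse cover counting error only.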

Additional observations from a re-analysis of the deposited data

Results flagged for a closer look

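Of 178 groups of mice examined, over 44 genes and 45 gene lists at 2 ages, 8 held a mouse far from the others of its age. Chance flags about 1 in 20 groups, so the count of 8 is near what chance gives. The groups share mice and genes, and the count does not judge any single flag. Given is the gap to the nearest mouse as a share of the whole range. At 34 weeks mouse 5 was that mouse in 4 of them, as the highest in Cyp1b1 (52.9 CPM, the next at 7.70, share 0.712), in the neutrophil and mast cell list (mean 3.25, share 0.667) and in the progenitor and fibroblast list (mean 6.24, share 0.529), and as the lowest in Scd2 (144 CPM, the next at 768, share 0.672). At 8 weeks mouse 5 was highest in the epididymis and testis list (mean 1.60, share 0.85), mouse 2 lowest in Serpina3f (26.7 CPM, share 0.65), mouse 3 lowest in Tgfb1 (12.2 CPM, share 0.634) and mouse 6 lowest in the branched-chain amino acid list (mean 7.34, share 0.627).

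The change between 8 and 34 weeks differed between chow and HFD, by the interaction test, in 18 of the 44 genes. Among all genes tested 22.8% did so. The 44 hold genes named for the largest interaction terms, which pass by that choice. They also hold genes named for large changes on chow, which enter the interaction, so the count says nothing about these genes as a set. The chow change was above the HFD change by 4.96 in Scd2, 3.53 in Acss2, 3.44 in Pcolce2, 3.43 in Cdkl4, 3.37 in Elovl6, 3.10 in Sfrp5, 2.42 in Col1a1, 2.10 in Adrb3 and 0.75 in Slc2a4. The difference was -4.02 in Cyp2f2, -3.47 in Gnal, -3.38 in Cyp1b1, -3.36 in Prg4, -3.03 in Rab15, -2.67 in Serpina3f, -2.39 in Cish, -2.12 in Bach1 and -2.03 in BC023105. Slc2a4 and Adrb3 did not pass the test on chow itself, and Gnal did not either.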

How the results depend on the processing

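The count of 5914 genes lay between 5178 and 6913 under 16 alternatives of scaling, filter, pseudocount, weights, tool or samples, apart from 4032 with the macrophage mean as a covariate, where 2229 genes were higher and 1803 lower, and apart from a further limit of at least 2-fold, which left 1459 genes, 911 higher and 548 lower. Of the 5914 genes, 3464 were also called in the same direction with that covariate and 0 in the opposite one, and Fn1, not called otherwise, was lower (-1.51). Without 1 mouse the counts ranged from 5380 to 6059 in all, from 3282 to 3732 higher and from 2041 to 2391 lower, and the interaction count of 2311 ranged from 1666 to 3012. Without mice 4 and 6 of the 34 week group, an alternative chosen after seeing the data, 6046 genes were called. With the mouse number as a replicate block the count was 5413 and that of the interaction 2329. The numbers are not known to pair the mice, since deviations of same-numbered mice correlated between -0.532 and 0.421 and 1 of 6 correlated best with its own number. Of 157 called genes among the 166 named, 130 kept their call and direction in all alternatives other than the covariate and without any 1 mouse, and 45 of 56 named interactions did so. The macrophage, progenitor and other markers that moved with age, the time of collection and the length trend limit how far a difference can be placed in the adipocyte, and genes near 1 read per mouse (0.0793 to 0.108 CPM) are measured coarsely.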
